A study of Mus musculus with 8 samples.

Results

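The genes of the cytosolic ribosomal proteins were examined in 8 chromatin immunoprecipitation sequencing (ChIP-seq) libraries from mouse E14Tg2a cells, an embryonic stem cell line, at passages 37 to 40. They were chosen by name among the protein-coding genes of the GENCODE M21 annotation (Rpl or Rps with a number and an optional letter, together with Rpsa, Rplp0, Rplp1, Rplp2 and Fau), which gave 82 of 21951 protein-coding genes. Of these, 50 encode proteins of the large subunit and 32 proteins of the small subunit. The kinase genes named Rps6k were not included. The naming rule uses no measured value, but this group of genes was chosen with earlier results of these data known.

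Cells kept pluripotent by leukemia inhibitory factor (LIF) are called ESCs, and neuronal cells (NCs) are monolayers that were deprived of LIF and given 1 µM retinoic acid (RA) for 48 h. One library each came from ESCs with antibodies against FGFR1, RXR and Nur77, and one each from NCs with antibodies against RXR, Nur77 and the histone variant H3.3. FGFR1 in NCs had 2 libraries, called replicate 1 and replicate 2 here, of which the title of replicate 2 names a second experiment. All groups share the same parental line, and chromatin of 5 plates was pooled. FGFR1 is a receptor of the cell surface with a nuclear form, and RXR and Nur77 are nuclear receptors, transcription factors of which RXR binds DNA as a partner of other receptors. Peak lists measure where an antibody recovered DNA and not RNA levels, so the cell state could not be checked here through the expression of marker genes.

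Every ribosome holds one copy of most of these proteins, assembled with ribosomal RNA in the nucleolus, and the genes lie scattered over the genome yet are transcribed at high and matched rates. Their mRNAs carry a run of pyrimidines at the very start, the terminal oligopyrimidine (TOP) tract, through which growth signals set their translation. Most of the genes are short, start within CpG-rich promoters that lack a canonical TATA box, and have many processed pseudogenes. Several host small nucleolar RNAs, which guide the modification of ribosomal RNA, in their introns. In the annotation, 31 members (37.8%) hosted a small non-coding RNA, against 6.52% of all protein-coding genes. The start of a divergent gene lay within 1000 bp upstream at 17 members, and the share over all protein-coding genes was not counted.

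A member was counted as bound in a library when a peak overlapped, by at least 20 bp, the region within 1000 bp of any of its transcript starts. Of the 82 genes, 81 (98.8%) were bound in FGFR1 RA replicate 2, beside 49.6% of all protein-coding genes under the same rule. In FGFR1 RA replicate 1, 60 members (73.2%) were bound, beside 50.7% of protein-coding genes. In the FGFR1 library from ESCs the numbers were 24 members (29.3%) and 17.0% of protein-coding genes. RXR was found at 45 members (54.9%) in ESCs, beside 42.5%, and at 19 members (23.2%) in NCs, beside 23.3%. Nur77 was found at 27 members (32.9%) in ESCs, beside 25.5%, and at 25 members (30.5%) in NCs, beside 25.8%. H3.3 in NCs had a peak at 18 members (22.0%), beside 15.5%. Thus in RXR NCs the share of ribosomal protein genes was that of the genome, and the distance from the genome was widest in FGFR1 RA replicate 2. The 2 FGFR1 RA libraries gave a mean of 70.5 ± 14.8 bound members (SD, n = 2), the only replicate spread that these libraries allow, and the labels do not say whether they came from separate cultures. With 1 library in each of the other 6 groups, no difference between ESCs and NCs could be tested.

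**Figure D1:**
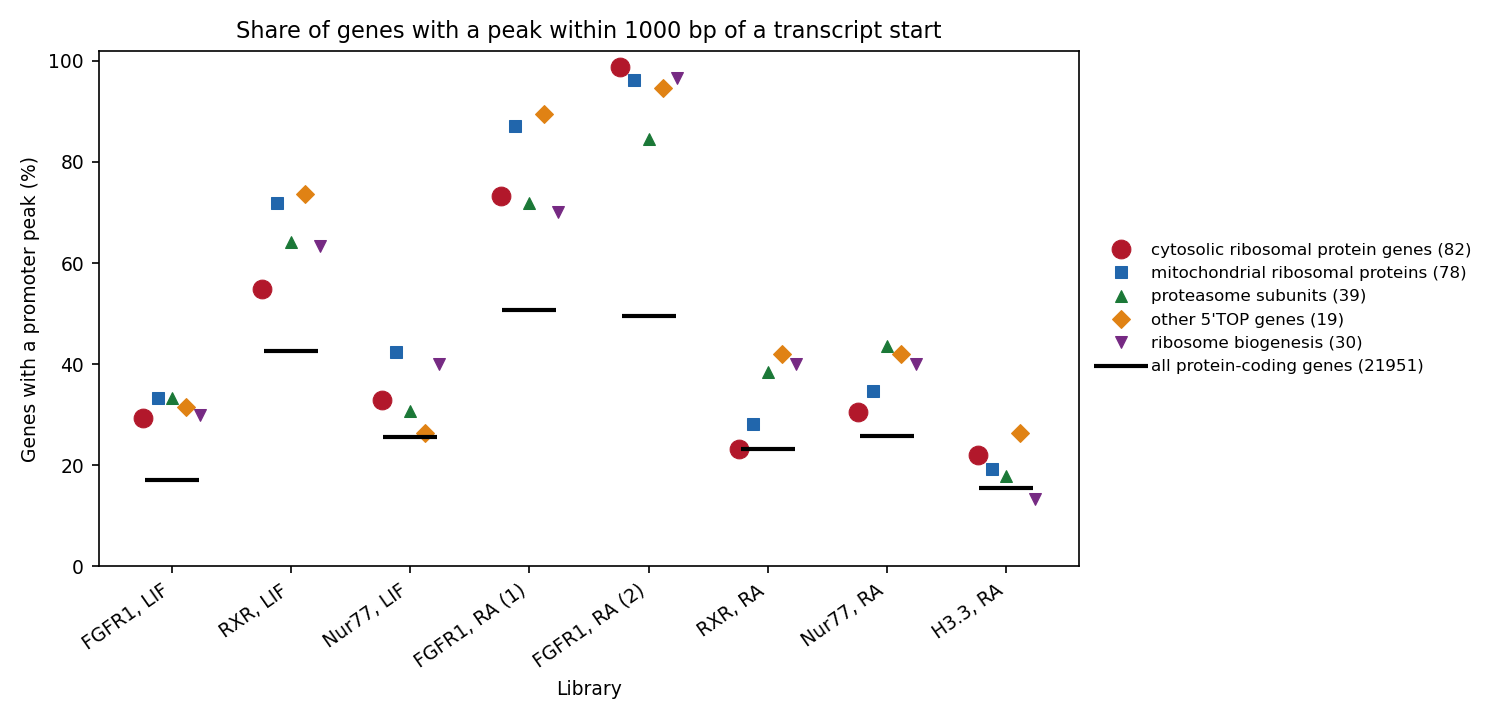
Share of genes with a promoter peak (vertical axis, percent) in each of the 8 libraries (horizontal axis) for the ribosomal protein genes, 4 comparison lists and all protein-coding genes, with the number of genes of each list in brackets. The red circles of the ribosomal protein genes stand at 98.8% in FGFR1 RA replicate 2, above all other lists, and on the line of all protein-coding genes (23.2% and 23.3%) in the RXR library from NCs.

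The lists differed in depth and in number of peaks. The background density inferred from the deposited values was lowest for H3.3 (1.27 fragments per kb) and highest for RXR in ESCs (7.09), and was 2.71 in FGFR1 ESCs, 4.16 in FGFR1 RA replicate 1 and 6.78 in replicate 2. The number of peaks ran from 10634 (H3.3) to 46137 (FGFR1 RA replicate 1). FGFR1 RA replicate 2 stood apart, with 14082 peaks of a median width of 311 bp, against medians of 89 to 140 bp in the other 7 libraries. Its fragment length, taken from the smallest peak, was 153 bp, against 72 bp in replicate 1. The part of these features in the counts was not tested.

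Because a longer list covers more promoters, the counts were repeated with the 10634 strongest peaks of every library. FGFR1 was then found at 23 members in ESCs (28.0%, beside 15.5% of protein-coding genes), at 25 in RA replicate 1 (30.5%, beside 18.1%) and at 81 in RA replicate 2 (98.8%, beside 43.1%). ESCs and RA replicate 1 thus stood at 23 against 25 members here and at 24 against 60 with the whole lists, while the count of replicate 2 was 81 in both. RXR was found at 20 members in ESCs (beside 14.9%) and 7 in NCs (12.7%), Nur77 at 13 (10.5%) and 9 (8.36%), and H3.3, whose whole list it was, at 18 (15.5%).

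Across the 8 libraries, 1 member, Fau, was bound in all (2.9% of protein-coding genes), and 1, Rpl3l, in none (34.5%). Fau encodes a ubiquitin-like protein fused to a small subunit protein, and its promoter is shared with Mrpl49, a mitochondrial ribosomal protein gene that starts 59 bp upstream in the other direction. Rpl3l is the paralog of Rpl3 that is known from skeletal muscle and heart. A further 10 members were bound in 7 libraries (12.2%, beside 5.17% of protein-coding genes). They were Rpl3, Rpl9, Rpl14, Rpl15, Rpl17, Rpl21, Rpl22, Rps20, Rps27a and Rps27l. At the other end, 12 members were bound in a single library (14.6%, beside 10.5% of protein-coding genes). For each of them it was FGFR1 RA replicate 2, which the count of 81 of 82 members bound there nearly fixes. They were Rpl10, Rpl10l, Rpl12, Rpl23a, Rpl24, Rpl36, Rpl36a, Rpl39, Rpl39l, Rps3, Rps4x and Rps26.

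**Figure D2:**
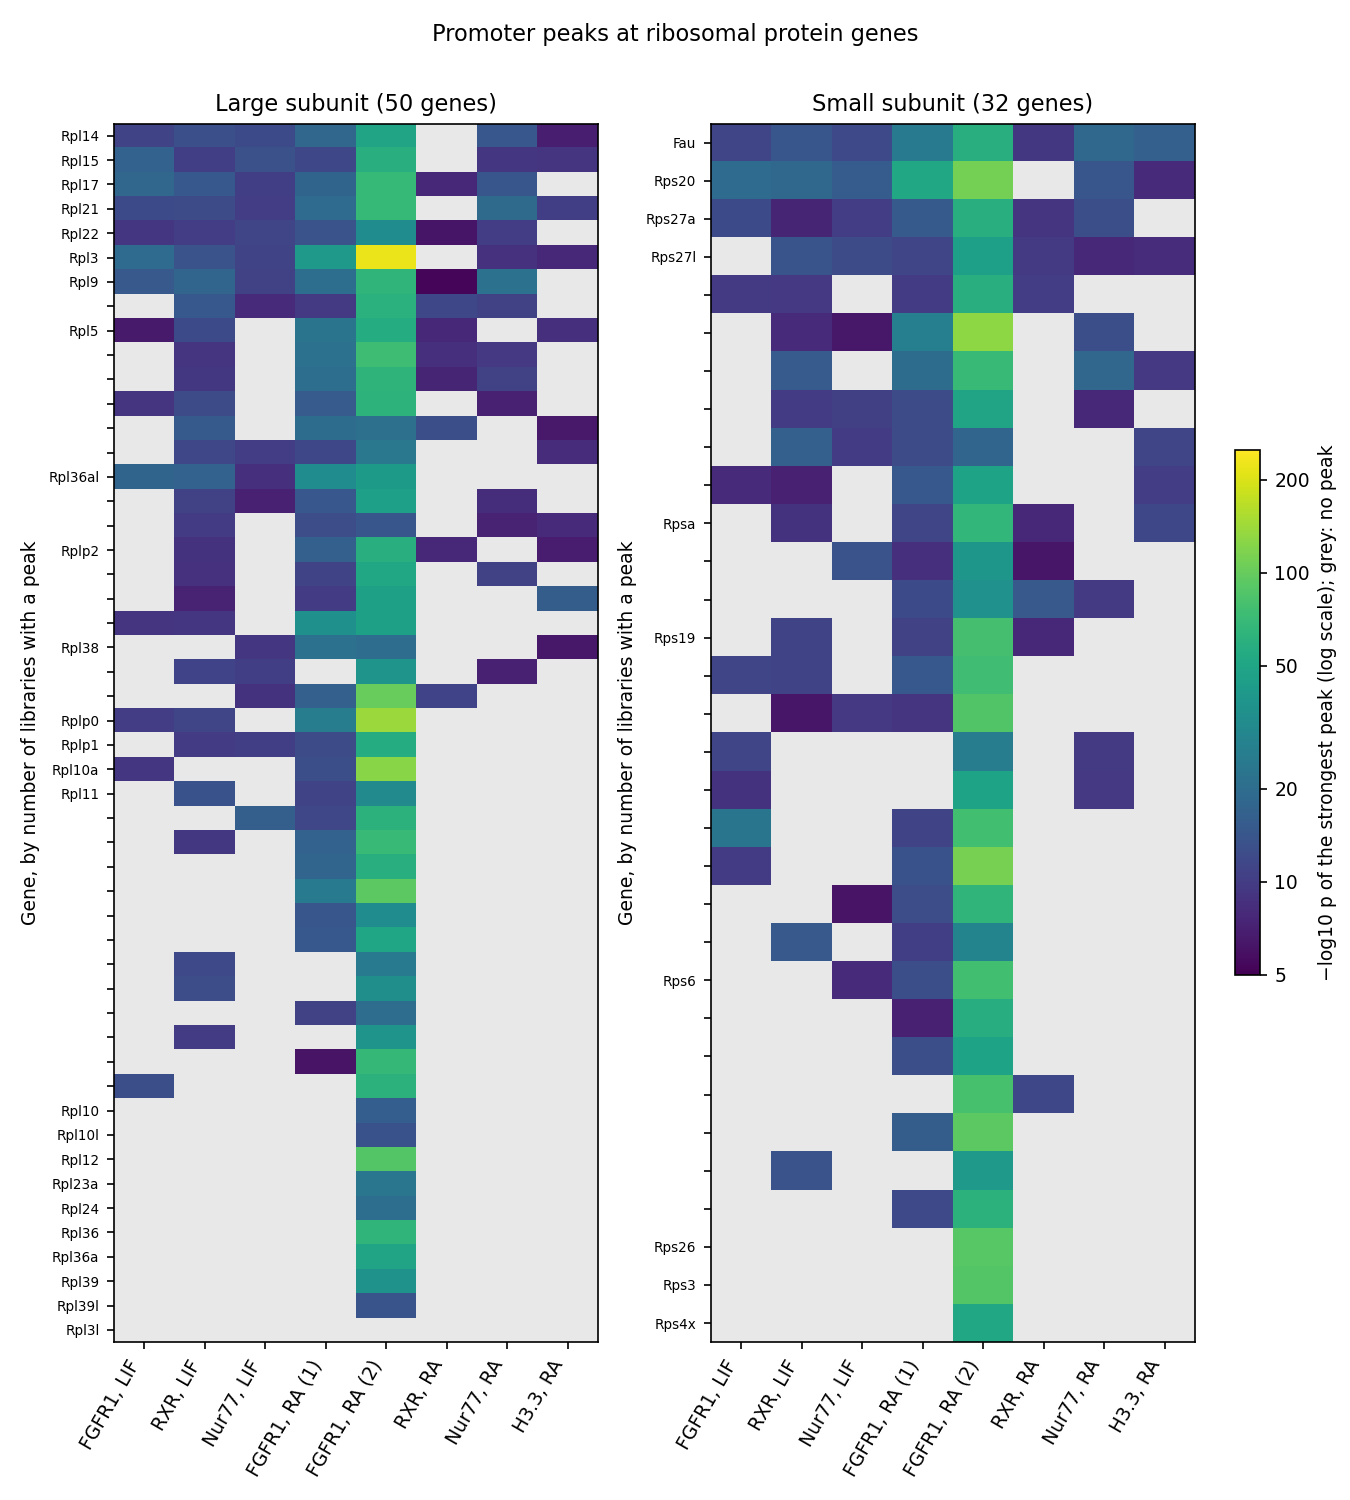
Strength of the strongest promoter peak (colour, −log10 p on a log scale, grey for no peak) of the 50 large subunit and 32 small subunit genes (rows, ordered by the number of libraries with a peak) in the 8 libraries (columns). The column of FGFR1 RA replicate 2 is filled for 81 of 82 genes and holds the highest values, up to 222 at Rpl3, and the bottom rows hold the genes bound in that library alone. Names are given for genes fixed by role and for those bound in at least 7 or at most 1 of the libraries.

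The promoters of 6 members are printed for the contrast between them, from 70 bases before to 20 bases after the RefSeq transcript start on GRCm38.p6 (mm10), 5′ to 3′ on the strand of the gene. Fau (chr19:6057877-6057966, plus strand), Rpl27a (chr7:109519125-109519214, plus strand) and Rps18 (chr17:33955646-33955735, minus strand) have a pyrimidine tract at the start. Rplp0 (chr5:115559397-115559486, plus strand) was among the strongest in FGFR1 RA replicate 2, Rpl10 (chrX:74270746-74270835, plus strand) was bound in that library alone, and Rpl3l (chr17:24727756-24727845, plus strand) had no peak. Capitals mark a run of at least 8 pyrimidines that holds any of the 5 bases on either side of the start.
Fau: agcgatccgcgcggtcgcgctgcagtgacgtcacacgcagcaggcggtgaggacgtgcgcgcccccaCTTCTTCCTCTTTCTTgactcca
Rpl27a: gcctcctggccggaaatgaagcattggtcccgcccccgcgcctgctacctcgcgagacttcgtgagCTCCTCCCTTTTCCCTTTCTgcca
Rps18: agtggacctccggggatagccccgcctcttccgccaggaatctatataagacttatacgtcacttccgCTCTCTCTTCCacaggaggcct
Rplp0: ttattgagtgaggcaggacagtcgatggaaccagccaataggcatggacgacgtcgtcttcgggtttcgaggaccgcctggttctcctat
Rpl10: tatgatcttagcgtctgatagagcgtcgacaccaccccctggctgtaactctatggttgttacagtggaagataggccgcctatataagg
Rpl3l: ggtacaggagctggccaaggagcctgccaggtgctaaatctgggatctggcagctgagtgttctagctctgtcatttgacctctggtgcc

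The tract was 16 bases long at Fau, 20 at Rpl27a and 11 at Rps18, and the other 3 promoters had none of that length at this start. RefSeq promoters of 300 bases (250 before the start and 50 after it) matched 62 of the 82 members by symbol. Rpl3 and Rps20 were among those with no entry. Of the matched members, 21 (33.9%) had a pyrimidine run of at least 8 bases at the start, against 9.28% of the 16530 protein-coding genes matched. The other TOP genes, translation factors and similar genes whose mRNAs carry the tract, had 33.3% (4 of 12), mitochondrial ribosomal protein genes 10.1% and proteasome genes 12.5%. Shorter runs were not counted, and the median run was 5 bases at the members and 3 over all matched genes. RefSeq starts lay within 50 bp of the main start at 42 of the 62 members. These shares therefore do not tell how many members carry the tract. The median GC content was 57.3% (57% over all), and the median number of CpG was 21 (14 over all). Rpl3l, the member without a peak, had 2 CpG, the lowest number of the 62 members.

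Short motifs were searched on both strands of the same 300 bases, each on its own, so that a promoter can hold several. The ETS word CCGGAAG was present in 23 members (37.1%), against 12.4% of all promoters, and in 36.2% of the mitochondrial ribosomal protein genes. The Sp1 word GGGCGG was present in 37 members (59.7%, against 48.4%), the YY1 word AAGATGGC in 5 (8.06%, against 3.26%), the NRF1 word GCGCATGC in 3 (4.84%, against 3.78%) and the cAMP response element TGACGTCA in 6 (9.68%, against 2.42%). The E-box CACGTG was found in 5 (8.06%, against 8.09%) and TATAAA in 5 (8.06%, against 12.9%). The nuclear receptor half-site AGGTCA was found in 6 members (9.68%) and 14.0% of all promoters. A match describes the letters and is not a binding site.

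FGFR1 RA replicate 2 also stood apart in the strength of the peaks at these genes. The −log10 p of the strongest peak had a median of 57 over its 81 members (range 13.5 to 222), against 25.5 over all bound protein-coding genes. The fragments at the summit had medians of 70 and 32, and 69 of the 81 members (85.2%) lay above the median of all bound genes. In the other 7 libraries the medians of members and all bound genes were 11.3 and 10.6 in FGFR1 ESCs, 14.0 and 13.2 in FGFR1 RA replicate 1, 11.2 and 10.6 in RXR ESCs, 8.46 and 9.93 in RXR NCs, 10.3 and 9.92 in Nur77 ESCs, 10.2 and 10.3 in Nur77 NCs, and 8.43 and 9.80 in H3.3. The members' median was the lower one in RXR NCs, H3.3 and, by less, Nur77 NCs. In RXR NCs and H3.3, 6 of 19 (31.6%) and 6 of 18 (33.3%) lay above the median of all bound genes, and in the other 5 of these libraries the share was 48.0% to 63.0%. The median percentile of the members among all peaks of a library was 93.4 in FGFR1 RA replicate 2, 71.6 in replicate 1, and between 15.6 (H3.3) and 59.7 (RXR ESCs) in the others. Among the 1000 most strongly bound genes of replicate 2, 40 were ribosomal protein genes, although they made up 0.744% of its bound genes. In replicate 1 the number was 8 of 1000.

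The local background at the summits was also higher at these genes in replicate 2, with a median of 4.29 fragments against 2.41 over all bound genes, and the peaks were wider (441 against 361 bp). The deposited fold, which sets the fragments against this background, was 12.3 at the median against 9.62. In replicate 1 the corresponding backgrounds were 0.613 and 0.617. As far as stated, no control library was used, so this background was drawn from the same reads as the peaks. Background and peak strength are therefore not independent, and the contribution of the higher background was not tested.

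**Figure D3:**
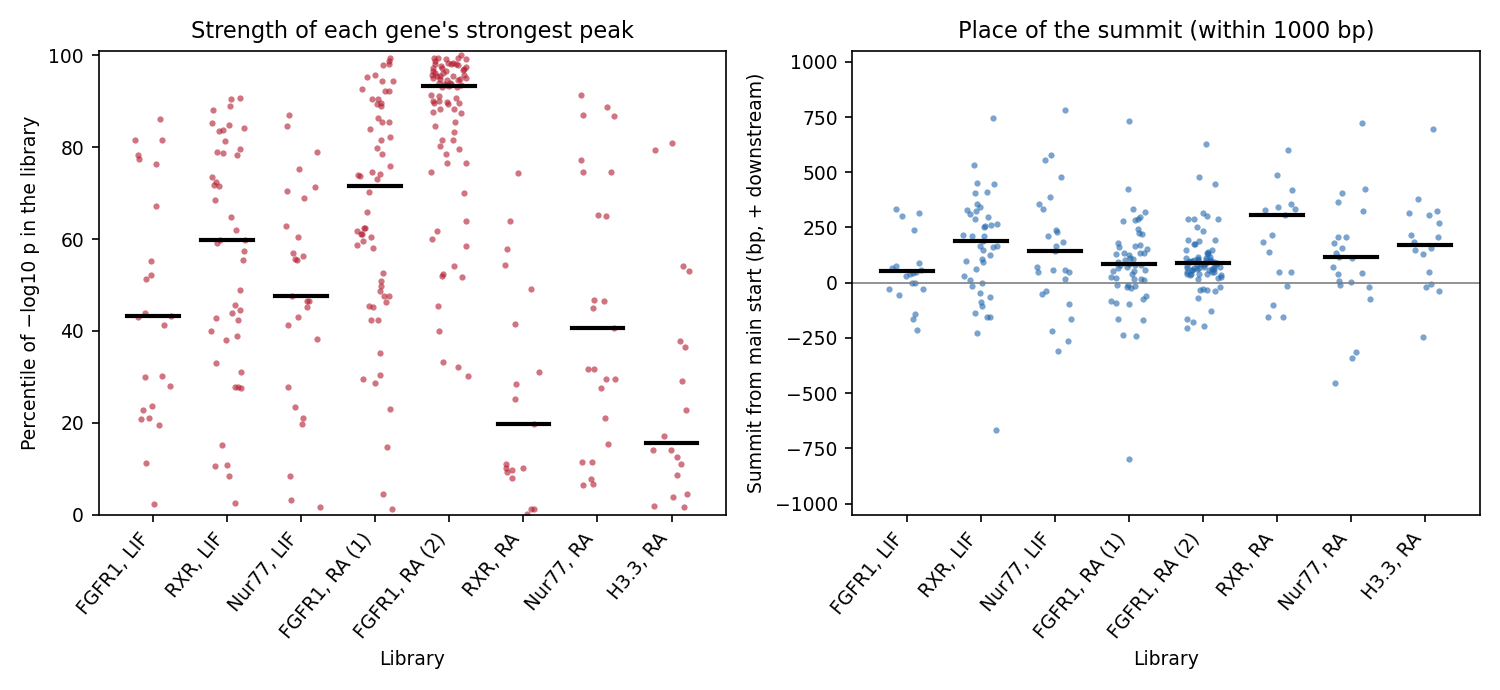
Left, percentile of each bound ribosomal protein gene's strongest peak among all peaks of its library by −log10 p; right, distance of the summit from the main transcript start in bp (positive downstream, points beyond 1000 bp not drawn). Each point is 1 gene and black bars are medians over all bound members; the median percentile is 93.4 in FGFR1 RA replicate 2, and all median summits lie downstream of the main start.

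The comparison lists helped to place these values. Mitochondrial ribosomal proteins, which build the ribosome of mitochondria, were bound at 75 of 78 genes in FGFR1 RA replicate 2, proteasome subunits at 33 of 39, ribosome biogenesis factors at 29 of 30 and other TOP genes at 18 of 19. High counts in that library were therefore shared with these lists. Their median −log10 p was lower, at 30.5, 28.7, 29.4 and 39.4, and their median percentiles were 71.9, 69.0, 70.2 and 82.8, against 93.4 for the cytosolic ribosomal protein genes. In FGFR1 RA replicate 1, the mitochondrial ribosomal proteins (68 of 78) and the other TOP genes (17 of 19) had larger bound shares than the cytosolic ones. In RXR ESCs the cytosolic ribosomal protein genes had a smaller bound share than each of the 4 lists (54.9%, against 63.3% to 73.7%). The same held in RXR NCs (23.2%, against 28.2% to 42.1%) and Nur77 NCs (30.5%, against 34.6% to 43.6%). In FGFR1 ESCs the gap was small (29.3%, against 30% to 33.3%). In Nur77 ESCs (32.9%, against 26.3% to 42.3%) and H3.3 (22.0%, against 13.3% to 26.3%) the cytosolic genes lay within the range of the lists.

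Both FGFR1 RA libraries were positive at 60 members (39.5% of protein-coding genes). Every member bound in replicate 1 was bound in replicate 2, which the 98.8% of all members bound there leaves little room to vary. The peaks shared bases at 58 of the 60 (96.7%, against 86.8% of the protein-coding genes bound in both). The −log10 p was higher in replicate 2 at 59 of these 60 members and at 84.7% of the 8664 protein-coding genes bound in both, with median ratios of 3.89 and 1.91. The order of the genes was only loosely kept: Spearman's rho of −log10 p between the 2 libraries was 0.28 over the 60 members and 0.28 over the 8664 genes, where the points share the promoter sequence and its mappability. The 21 members bound in replicate 2 alone had a median −log10 p of 37.9 there (13.5 to 90.0), against 58.3 (14.2 to 222) for the 60 bound in both, so the ranges overlapped. Over all protein-coding genes these medians were 18.7 and 27.7.

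**Figure D4:**
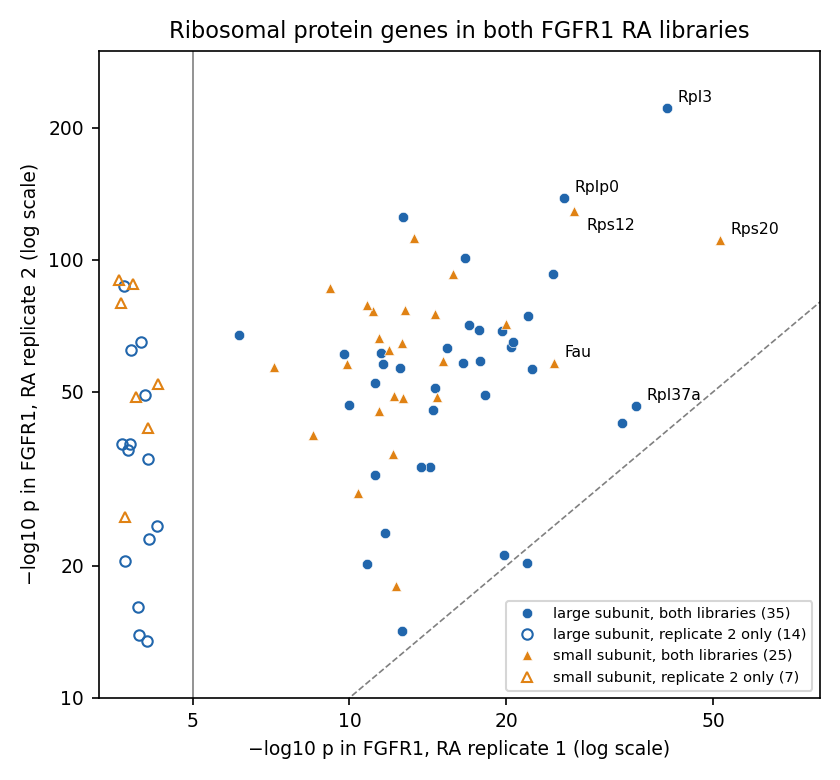
−log10 p of the strongest promoter peak in FGFR1 RA replicate 1 (horizontal, log scale) and replicate 2 (vertical, log scale) for the 81 bound ribosomal protein genes. Open symbols left of the vertical line have no peak in replicate 1 and are spread sideways for legibility. Of 60 genes with both values, 59 lie above the dashed line of equality.

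Rpl3, a protein near the peptidyl transferase centre, had the strongest peak of the set. Its summit held 222 fragments (exact Poisson 95% interval 194 to 253) on a background of 8.79 in FGFR1 RA replicate 2, the peak of rank 3 in the whole library. It held 30 (20.2 to 42.8) in FGFR1 RA replicate 1, 20 (12.2 to 30.9) in FGFR1 ESCs, 15 (8.40 to 24.7) in RXR ESCs, 11 (5.49 to 19.7) in Nur77 ESCs, 8 (3.45 to 15.8) in Nur77 NCs and 5 (1.62 to 11.7) in H3.3, and there was no RXR peak in NCs. These intervals cover counting error only, and the libraries differ in depth. Its 7 summits lay within 67 to 128 bp downstream of the main start, in a gene that also hosts a small non-coding RNA.

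Rps20, a small subunit protein of the head of the subunit, was the strongest member in FGFR1 RA replicate 1 (34 fragments, 23.5 to 47.5, −log10 p 51.4) and in RXR ESCs (16 fragments, −log10 p 18.4), and the next strongest in FGFR1 ESCs (16 fragments, 19.7) and Nur77 ESCs (13 fragments, 15.5). In FGFR1 RA replicate 2 it had 116 fragments (95.9 to 139), and it lacked a peak only in RXR NCs. Its summits stood 89 to 207 bp downstream of the start. Among all peaks of its library it stood at percentile 81.6 to 90.7 in the ESC libraries, at 99.5 and 99.1 in FGFR1 RA replicates 1 and 2, at 74.7 in Nur77 NCs and at 12.5 in H3.3 (6 fragments).

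The stalk of the large subunit recruits translation factors and is built from Rplp0, Rplp1 and Rplp2. Rplp0 had 143 fragments (121 to 168) in FGFR1 RA replicate 2, the member with the next highest −log10 p after Rpl3 (138), and 21 fragments in replicate 1, 14 in RXR ESCs and 11 in FGFR1 ESCs. Rplp1 had 71 fragments in replicate 2 and 11 in each of replicate 1, RXR ESCs and Nur77 ESCs. Rplp2 had 76 in replicate 2, 15 in replicate 1, 12 in RXR ESCs, 8 in RXR NCs and 6 in H3.3. FGFR1 in ESCs was therefore seen at Rplp0 and not at Rplp1 or Rplp2.

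Rpl5 and Rpl11, which join the smallest ribosomal RNA of the large subunit and bind Mdm2 when free, were bound by FGFR1 in both RA libraries. Rpl5 had 62 fragments in replicate 2 and 17 in replicate 1, and also a peak in FGFR1 ESCs (6 fragments, 2.20 to 13.1). Rpl11 had 40 and 11 fragments, and no FGFR1 peak in ESCs. Both had RXR in ESCs, with 12 and 16 fragments, and only Rpl5 had RXR in NCs, with 6.

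Of the small subunit genes linked to signalling or disease, Rps6, whose protein is phosphorylated downstream of mTOR, had 80 fragments in FGFR1 RA replicate 2, 10 in replicate 1 and 8 in Nur77 ESCs. Rps19, the gene most often mutated in Diamond-Blackfan anaemia, had 94 and 13 fragments in the FGFR1 RA libraries, 16 in RXR ESCs and 8 in RXR NCs. Rpsa, known also as the laminin receptor, had 77 and 11 fragments, with peaks of RXR in both states (12 fragments in ESCs and 7 in NCs) and of H3.3 (9 fragments, −log10 p 11.6).

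Rpl10a and Rpl38, large subunit proteins for which roles in the translation of particular mRNAs have been described, differed. Rpl10a had 160 fragments (136 to 187) in FGFR1 RA replicate 2, 17 in replicate 1 and 14 in FGFR1 ESCs, with no RXR, Nur77 or H3.3 peak. Rpl38 had 35 fragments (24.4 to 48.7) in replicate 2 and 21 in replicate 1, and its −log10 p was 20.3 and 21.9. It was the 1 member of the 60 whose −log10 p was not higher in replicate 2.

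The ubiquitin fusion gene Rps27a was bound in 7 libraries, with 68 fragments in FGFR1 RA replicate 2 and 7 to 11 in the other 6, and had no H3.3 peak. At Fau the number of fragments was 83 (66.1 to 103) in FGFR1 RA replicate 2, 26 in replicate 1, 20 in RXR ESCs, 20 in Nur77 NCs, 16 in H3.3, 15 in Nur77 ESCs, 14 in FGFR1 ESCs and 10 in RXR NCs. Of its summits, 7 lay 31 to 71 bp downstream of the annotated main start, and that of FGFR1 RA replicate 2 lay 164 bp upstream. The RefSeq start of the printed promoter lies 103 bp downstream of that main start. Fau was also the strongest member in H3.3, followed by Rpl32 and Rpsa.

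The tissue-restricted paralogs fell into separate levels. Rpl10l and Rpl39l, the testis copies of the X-linked genes Rpl10 and Rpl39, were bound in FGFR1 RA replicate 2 alone and had the lowest −log10 p of all 81 bound members, 13.5 (15 fragments) and 13.9 (16 fragments). Rpl3l had no promoter peak, and its nearest summit in replicate 2 lay 3446 bp upstream of its start. The widely expressed paralogs Rpl36al and Rps27l had −log10 p of 42.3 and 45.2 in that library, and were bound in 5 and 7 libraries. Rpl36al shares its promoter with Mgat2, which starts 74 bp away, and all 5 of its summits lay on the upstream side, at 155 to 217 bp.

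The 4 X-linked members, Rpl10, Rpl36a, Rpl39 and Rps4x, were bound in FGFR1 RA replicate 2 and in no other library. Their fragments there were 22 (13.8 to 33.3), 53 (39.7 to 69.3), 43 (31.1 to 57.9) and 49 (36.3 to 64.8), with a median −log10 p of 42.9 against 57 over all members. X-linked genes in general had fewer peaks in each library. In FGFR1 RA replicate 2, 29.9% of 948 X-linked protein-coding genes were bound, against 51.0% of 20807 autosomal ones, and in replicate 1 the shares were 16% and 52.8%. In the other 6 libraries the X-linked shares ran from 2.22% (H3.3, against 16.2%) to 7.07% (RXR ESCs, against 44.5%). The absence of the X-linked members from 7 lists thus went together with a low share over the whole chromosome, and no cause of either was tested.

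Between the states, 21 members were bound by FGFR1 in ESCs and both RA libraries (14.7% of protein-coding genes), 39 in both RA libraries and not in ESCs (24.8%), and 0 in ESCs alone (0.305%). The 3 members bound in ESCs and not in RA replicate 1 were bound in replicate 2. The 24 members bound in ESCs had a median −log10 p of 60.4 in RA replicate 2 and the other 57 a median of 50.9. Over all protein-coding genes the medians in replicate 2 were 35.3 with and 21.9 without a peak in FGFR1 ESCs. In replicate 1 the medians were 17.7 for 21 members and 12.5 for 39, and over all protein-coding genes 16 and 12.1.

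For RXR the count of members was lower in NCs than in ESCs, as it was over all genes. RXR was found in both states at 15 members (19.4% of protein-coding genes), in ESCs only at 30 (23.1%) and in NCs only at 4 (3.94%). The RXR library from NCs had a background density of 1.87 fragments per kb against 7.09 in ESCs, and its part in the lower count was not tested. Nur77 was found in both states at 16 members (14.0%), in ESCs only at 11 (11.4%) and in NCs only at 9 (11.8%), near the genome's balance. Rpl9 and Rpl21 had the strongest Nur77 peaks in NCs, with 18 and 16 fragments against 10 and 10 in ESCs, and Rpl26 had the strongest in ESCs, with 17 fragments and none in NCs.

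FGFR1, RXR and Nur77 were found together at 11 members in ESCs (9.51% of protein-coding genes) and at 10 in NCs, with FGFR1 in both libraries (11.1%). Fau, Rpl9, Rpl17, Rpl22 and Rps27a were in both groups. In ESCs, FGFR1 and RXR met at 18 members, which were 75% of the members with FGFR1 and 40.0% of those with RXR. Over all protein-coding genes the shares were 84.5% and 33.8%. The peaks shared bases at 16 of the 18 (88.9%, against 83.2% of all genes with both). In NCs, all 18 members with H3.3 were bound by FGFR1 in both RA libraries, where 73.2% and 98.8% of all members were bound. Of all genes with H3.3, 94.5% and 80.8% were bound in replicates 1 and 2. For replicate 2 the binding of all 18 members is nearly fixed by its count of 81 of 82. The peaks shared bases at 16 in each (88.9%), against 87.6% and 76.9% of all genes with both. Of the 18, 6 had RXR in NCs (33.3%, against 60.7% of all genes with H3.3).

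The subunits were alike in their counts. FGFR1 was found at 49 of 50 large and 32 of 32 small subunit genes in RA replicate 2, with median −log10 p of 50.9 and 60.4, and in replicate 1 the numbers were 35 and 25. In FGFR1 ESCs 14 large (28.0%) and 10 small subunit genes (31.2%) were bound. In RXR ESCs the shares were 58.0% and 50%, and in RXR NCs 20% and 28.1%.

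The main start was that of the principal coding transcript, and the most upstream one where several ranked alike. Relative to the main start, most summits lay downstream. Relative to the nearest of all annotated starts of the member, the medians were close to 0 in most libraries. Taking the nearest of many starts by itself draws distances toward 0, and members had a median of 6 starts, against 3 over all protein-coding genes. With starts of coding transcripts only, the medians ran from 14 bp (FGFR1 ESCs) to 108 bp (H3.3). From the nearest of all starts, the median position (negative upstream) was −1.5 bp in FGFR1 ESCs, −3.0 in RXR ESCs and 16 in Nur77 ESCs. It was 3.5 and 8 in FGFR1 RA replicates 1 and 2, 55 in RXR NCs, 8 in Nur77 NCs and 51 in H3.3. In replicate 2 the value over all bound genes was 5 bp, so the place of the members relative to all genes depends on which start is used. With unlike numbers of starts, the nearest start cannot settle that place. From the main start, 13.6% of the members in FGFR1 RA replicate 2 had their summit upstream, against 36.4% of all bound genes, and the median position was 90 bp downstream against 44 bp. Choosing the most upstream of several starts can by itself place summits downstream. Members have more starts, so the main start cannot settle their place relative to all genes either. In the other libraries 21.1% to 29.2% of the members' summits were upstream, against 30.5% to 33.9% of all genes. The median position ran from 52.5 bp (FGFR1 ESCs) to 308 bp (RXR NCs). The first exon of the main transcript had a median of 96.5 bp, and in replicate 2 the summit fell into the first exon at 36 members, into the first intron at 30 and upstream at 11. In RXR ESCs the first intron held 25 of 45 summits and the first exon 7. Annotated starts need not be the ones in use: RefSeq placed the start within 50 bp of the main start at 42 of the 62 matched members.

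At a few members the peak stood at another start. Rps18, the strongest member in FGFR1 ESCs by the rule (27 fragments, −log10 p 22.7), had its summit 4313 bp from the main start, past the end of the gene and 124 bp from the start of its neighbour B3galt4, a glycosyltransferase gene. Its strongest peaks in both FGFR1 RA libraries lay 4149 and 4193 bp from the main start, 40 and 4 bp from that of B3galt4. A further peak of FGFR1 RA replicate 2 (−log10 p 75.1) stood 56 bp downstream of the main start of Rps18 printed above. Rpl17 and Rps10 had summits over 1000 bp from the main start in 7 and 5 libraries, each within 449 bp of another start of their own. Counting only members whose strongest summit was nearer to a start of their own than to that of any other protein-coding gene left 75 in FGFR1 RA replicate 2 (beside 44.0% of protein-coding genes by the same rule), 54 in replicate 1 (46.0%) and 20 in FGFR1 ESCs (14.9%). It left 41 in RXR ESCs (38.5%), 18 in RXR NCs (21.2%), 24 in Nur77 ESCs (22.9%), 23 in Nur77 NCs (23.4%) and 16 in H3.3 (14.0%). This count was added after the data had been seen. The members lost included Fau in replicate 2, whose summit lay on the side of Mrpl49, and Rpl36al, on the side of Mgat2, in 5 libraries.

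Reads that map to more than 1 place were dropped by the authors, which matters for genes with many processed copies. Words of 32 bp were therefore counted in the assembly around each main start. At the members, the median share of words that occur once was 93.3% upstream and 89.4% downstream within 950 bp, against 99.6% and 100% over all protein-coding genes and 99.8% and 100% at the mitochondrial ribosomal protein genes. The lowest downstream share was 54.0%, at Rpl10l, and it was 64.4% at Rps2. Within 250 bp on either side the median was 98.3%. Of the 294 annotated ribosomal protein pseudogenes with names of the -ps type, 1 to 13 had a peak within 1000 bp of their start in a library, and 0 to 4 had a summit inside. FGFR1 RA replicate 2, with 81 of 82 genes bound, had a peak at 1 pseudogene and a summit inside none.

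No strongest peak of a member held an alternating purine and pyrimidine tract of at least 20 bp in any library, where 0.936% to 7.21% of all bound genes had one.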

How the data were processed

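Groups were read from the sample titles. Per the labels and the study's methods, the authors mapped reads to mm10 with Bowtie 1.0, discarded reads with several places, and ran MACS2 on every library by itself with the p threshold 1e-05 and, as far as stated, without a control. The fold of a peak is its summit pileup plus 1, divided by the local background plus 1. Each of the 8 deposited lists holds, per peak, a score, this fold, −log10 p, −log10 q and the offset of the summit. None of these is a read count, and depth was inferred: a whole number of fragments and a background were found that give the deposited fold and −log10 p (within 0.002 of the deposited value for 100% of the peaks; the solver was tested on simulated data). The lowest background divided by the smallest width gave fragments per kb.

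Starts came from GENCODE M21 and promoters from RefSeq (GRCm38.p6). A gene was bound when a peak overlapped by 20 bp or more the region within 1000 bp of a start, and its strongest peak by −log10 p was described. No test was made, since 6 of 7 groups had 1 library. Intervals are exact Poisson 95% limits for counting error. The members and lists were chosen with earlier results of these data known. Named genes were fixed by role (stalk, X-linked members, fusions, paralogs and others), the 3 strongest members of each library, and those bound in 0 or 1 library; others named were chosen after their values were seen. Python 3.11.15, pandas 2.3.3 and pysam 0.24.0 were used. There were 9 alternative settings. Some members are not reported here by name.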

Additional observations from a re-analysis of the deposited data

How the results depend on the processing

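With peaks of −log10 p of at least 10, 16 members were bound in FGFR1 ESCs (from 24), 19.5% beside 9.81% of protein-coding genes. In RXR ESCs 29 were bound (35.4%, beside 25.3%), in Nur77 ESCs 17 (20.7%, beside 12.4%) and in RXR NCs 6 (7.32%, beside 10.9%). Nur77 NCs had 13 (15.9%, beside 14.0%) and H3.3 had 6 (7.32%, beside 7.17%). FGFR1 RA replicates 1 and 2 had 53 (64.6%, beside 40.6%) and 81 (98.8%, beside 46.5%). The number bound in all 8 libraries was 0 (beside 0.574%). With the 10634 strongest peaks of each library, RXR ESCs had 20 bound members, Nur77 ESCs 13, RXR NCs 7 and Nur77 NCs 9. FGFR1 RA replicate 1 had 25, and 0 were bound in all 8 (beside 0.601%), with the other shares given above. In a core set of 79 genes, without the 5 paralogs and with 2 genes outside the naming rule, 0 genes were bound in no library, since Rpl3l was left out. The other 114 values, those of FGFR1 at −log10 p of at least 10 included, moved by at most 1.5 times, or for summits by less than 1 SD. They cover these settings and the limits on q, fold, width of the promoter, place of the summit, coding transcripts, tract peaks and the nearest gene. The median summit positions from the nearest start still shifted. With coding transcripts only, they rose in every library, in RXR ESCs from −3.0 to 96 bp, and ran from 14 bp (FGFR1 ESCs) to 108 bp (H3.3). With the 10634 strongest peaks they ran from −43 bp (RXR NCs, 55 bp before) to 51 bp (H3.3). The 114 values do not cover the counts by state or of factors found together, some of which moved more. With the 10634 strongest peaks, FGFR1 in both RA libraries and not in ESCs fell from 39 to 13 members (beside 7.3%). At −log10 p of at least 10 it stayed at 39 (beside 23.4%). RXR in both states fell from 15 to 2 at that limit (beside 6.93%) and to 3 with the 10634 strongest peaks (beside 5.43%). Leaving out FGFR1 RA replicate 1 leaves 81 bound members for that group, and leaving out replicate 2 leaves 60. The mean of 70.5 thus depends on both libraries. No paired analysis was possible because no test was made and 6 groups had 1 library. Shallow lists such as H3.3 and RXR NCs, with 1.27 and 1.87 background fragments per kb, limit what an absent peak means, and depth, antibody and peak number differ together.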
